A study of Mus musculus with 2 samples.

Results

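Fibroblasts carrying *Pi16* or *Dpp4* were described in the 2 scRNA-Seq libraries of the SPP1 neutralization experiment, and 1038 of 48143 cells met the rule that defines them. A cell was counted when its barcode had more than 200 genes, less than 10% mitochondrial unique molecular identifiers (UMIs, each marking 1 captured RNA molecule), at least 1 UMI of *Pdgfra*, at least 2 of *Dcn*, *Col1a1*, *Col3a1* and *Lum* detected, at least 1 UMI of *Pi16* or *Dpp4*, and no UMI of *Csf1r*, *Pecam1* or *Tnmd*. These cells are called Pi16/Dpp4 fibroblasts here. The cells that met every other term but had no UMI of *Pi16* and *Dpp4*, 1239 with IgG and 435 with SPP1-nAb, are called the other fibroblasts.

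The muscles came from male mice aged 10 to 16 weeks, labelled C57BL/6J, with crush injuries of the peroneal nerve on both sides. One library came from mice given goat anti-mouse IgG and the other from mice given an antibody that neutralizes secreted phosphoprotein 1 (SPP1-nAb), each as 2 μg in 10 μL injected into the tibialis anterior muscle every 2 days from the injury. Muscles were taken at 7 dpi and digested with enzymes, and living cells were sorted. The labels' protocol names the tibialis anterior and gastrocnemius, whereas the study's account of this experiment names the tibialis anterior alone, so which muscles were pooled is not settled. The study's methods name reporter mice with green fluorescent protein (GFP) under the S100B promoter, which is active in Schwann cells, for its antibody experiments. The protocol names GFP-positive and GFP-negative cells while the sample titles name only the former, so shares of cells below describe the libraries and not the muscle. The number of animals pooled per library is not given in the sources used here. Each condition had 1 library, so no difference between conditions was tested, and treatment, animals, sort and library cannot be told apart. All intervals are 95% intervals that cover counting error only.

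Fibroblasts positive for platelet-derived growth factor receptor α, the product of *Pdgfra*, lie between the fibers and in the connective tissue sheaths of skeletal muscle, where they are also known as fibro-adipogenic progenitors (FAPs). Those carrying *Pi16*, which encodes a peptidase inhibitor of the cell surface, and *Dpp4*, which encodes a surface dipeptidyl peptidase, are known from the adventitia of vessels and from fascia. They are regarded as a progenitor-like population rich in microfibril and hyaluronan genes. Interstitial FAPs, marked by *Smoc2* and *Cxcl14*, lie among the muscle fibers.

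The IgG library held 709 Pi16/Dpp4 fibroblasts among 23385 cells, or 3.03% (2.82% to 3.26%, Clopper-Pearson). In the SPP1-nAb library there were 329 among 24758, or 1.33% (1.19% to 1.48%). All fibroblasts by the same rule made up 8.33% and 3.09% of the libraries, and the Pi16/Dpp4 fibroblasts were 36.4% (34.3% to 38.6%) and 43.1% (39.5% to 46.7%) of these. This second pair depended on depth. The Pi16/Dpp4 fibroblasts had a median of 5483 UMIs with IgG and 8607 with SPP1-nAb, and a rule that asks for 1 UMI admits more cells in a deeper library. To compare at equal depth, the 4275 and 3715 cells with fewer than 2000 UMIs were left out and the others thinned to 2000 UMIs. Over the 19110 and 21043 cells kept, the Pi16/Dpp4 fibroblasts were 37.6% and 43.8% of the fibroblasts before thinning, and 26.9% with IgG and 26.2% with SPP1-nAb when the rule was applied to the thinned cells. Their share of these cells was lower with SPP1-nAb both times, 1.55% against 3.65% before thinning and 0.760% against 2.23% after it. Where detection of a gene at equal depth is given below, the cells were chosen by the rule before thinning. Summed over the cells, 4319452 UMIs with IgG and 2931980 with SPP1-nAb stood behind the levels below. Levels are given as CPM, the UMIs of a gene for every 1000000 UMIs of all genes in the same set of cells, with exact Poisson intervals. No barcode was shared between the libraries among these cells, and 163 were shared among all barcodes.

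Markers that the rule did not use were examined first. *Cd55*, which protects cells from complement, was at 359 CPM in Pi16/Dpp4 fibroblasts and 74.9 CPM in other fibroblasts of the IgG library. The corresponding levels with SPP1-nAb were 210 and 42.4 CPM. *Sema3c*, a secreted semaphorin, was at 620 against 95.4 CPM with IgG and at 320 against 57.9 CPM with SPP1-nAb. *Anxa3*, *Ackr3*, *Clec3b*, *Mfap5*, *Fbn1*, *Ly6c1* and *Ly6a*, the rest of the adventitial markers, were also higher in Pi16/Dpp4 fibroblasts than in other fibroblasts of both libraries. The gap was widest for *Anxa3*, an annexin, with 311 against 40.6 CPM with IgG, and narrowest for *Mfap5*, a microfibril gene, with 1233 against 880 CPM with SPP1-nAb. In cells thinned to 2000 UMIs, *Cd55* was found in 39.7% and 25.7% of Pi16/Dpp4 fibroblasts, in 13.9% and 8.59% of other fibroblasts and in 0.387% and 0.212% of phagocytes (cells with a *Csf1r* UMI and none of *Pdgfra*, with median depths of 4208 and 5360), with IgG given first. Before thinning, the values in Pi16/Dpp4 fibroblasts were 61.2% and 50.5%. For *Cd55* the share in both sets of fibroblasts was thus above that in phagocytes. This did not hold for every marker. *Anxa3* was found in 40.4% and 21.4% of Pi16/Dpp4 fibroblasts, 6.39% and 7.88% of other fibroblasts and 12.9% and 16.3% of phagocytes. The part of free RNA in these values was not tested.

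Interstitial markers set the libraries apart. *Smoc2*, which encodes a calcium-binding matrix protein, was at 926 CPM in Pi16/Dpp4 fibroblasts and 2324 CPM in other fibroblasts with IgG, whereas with SPP1-nAb the levels of 1450 and 1532 CPM were close to each other. *Col15a1*, a collagen of basement membrane zones, behaved in the same way, at 153 against 535 CPM with IgG and at 199 against 181 CPM with SPP1-nAb. *Lpl*, lipoprotein lipase, was lower in Pi16/Dpp4 fibroblasts of both libraries, at 523 against 883 CPM and 474 against 676 CPM. The adventitial label therefore described the whole set in the IgG library better than in the SPP1-nAb library. Over the 24 genes of the interstitial list the median log2 ratio of Pi16/Dpp4 over other fibroblasts was −0.76 with IgG and −0.25 with SPP1-nAb, and with SPP1-nAb some of these genes were still well below other fibroblasts, such as *Fmo2*, a flavin monooxygenase, at −1.25 and *Vcam1*, an adhesion molecule, at −0.88.

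**Figure D1:**
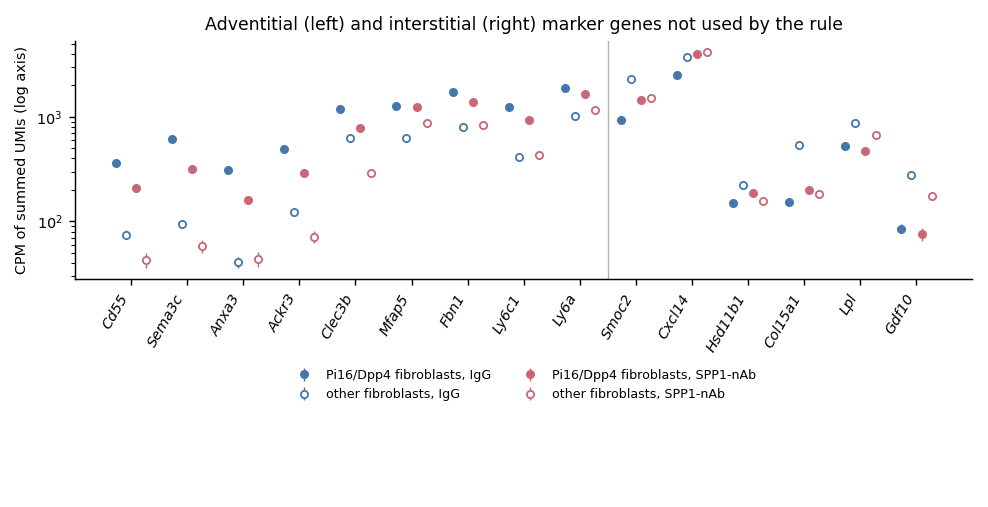
Levels of 9 adventitial and 6 interstitial marker genes in CPM of summed UMIs on a log axis, for Pi16/Dpp4 fibroblasts (filled) and other fibroblasts (open) of the IgG (blue) and SPP1-nAb (red) libraries. Lines are exact Poisson 95% intervals; filled points lie above open points of the same color for all 9 adventitial genes, while for *Smoc2* the SPP1-nAb points almost meet at 1450 and 1532 CPM.

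The genes that chose the cells were spread unevenly among them, which is given as a description. A *Pi16* UMI was found in 639 of 709 cells (90.1%) with IgG and in 305 of 329 (92.7%) with SPP1-nAb. A *Dpp4* UMI was found in 387 (54.6%, 50.8% to 58.3%) and 107 (32.5%, 27.5% to 37.9%). Cells with both made up 44.7% with IgG and 25.2% with SPP1-nAb, and cells with *Pi16* alone 45.4% and 67.5%. The level of *Pi16* was 1128 CPM (1096 to 1160) with IgG and 685 CPM (655 to 715) with SPP1-nAb. *Dpp4* was at 220 CPM (206 to 234) and 79.8 CPM (69.9 to 90.7). After thinning, *Dpp4* was detected in 30.9% of the cells with IgG and 13.8% with SPP1-nAb. The cells were chosen before thinning, so detection but not membership was set to equal depth. The deeper SPP1-nAb cells could enter with a lower share of *Pi16* or *Dpp4* UMIs. The shares in phagocytes were 1.32% and 0.910%, but a higher share in cells chosen by *Pi16* or *Dpp4* follows in part from that choice. Differences in *Pi16* and *Dpp4* between the conditions could not be tested.

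Adventitial genes were highest in cells that carried both. In the IgG library the 36 genes of the adventitial list summed to 32620 CPM in cells with both genes, 17631 CPM in cells with *Pi16* alone and 18820 CPM in cells with *Dpp4* alone. The 24 genes of the interstitial list ran the other way, at 5552, 22288 and 16158 CPM. With SPP1-nAb the same classes held 33746, 14320 and 17105 CPM of adventitial and 7129, 23646 and 10481 CPM of interstitial genes. Macrophage markers differed between these classes as well, at 757, 726 and 2113 CPM with IgG and 1986, 1287 and 3907 CPM with SPP1-nAb, and their part in the sums was not tested. Cells with both genes therefore had nearly equal adventitial sums in the 2 libraries, and cells with *Pi16* alone did not. The rule counted a cell from its first UMI. Cells just inside, with exactly 1 UMI of the 2 genes together, were 156 with IgG and 101 with SPP1-nAb, and their adventitial sums were 14773 and 12839 CPM. Cells just outside, the other fibroblasts, were at 10494 and 10714 CPM. Cells with at least 5 *Pi16* UMIs, which were 311 with IgG and 114 with SPP1-nAb, reached 32286 and 27881 CPM. No Pi16/Dpp4 fibroblast had a mitochondrial share between 8 and 10%, next to the upper limit.

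**Figure D2:**
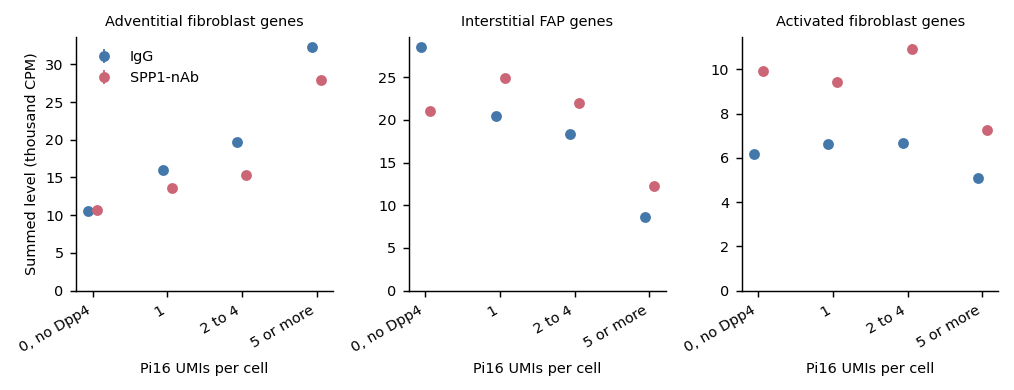
Summed CPM of the adventitial, interstitial and activated gene lists (in units of 1000 CPM, axes from 0) in fibroblasts without *Pi16* and *Dpp4* UMIs and in Pi16/Dpp4 fibroblasts with 1, 2 to 4 and at least 5 *Pi16* UMIs, for IgG (blue) and SPP1-nAb (red), with exact Poisson 95% intervals that are mostly smaller than the points. Adventitial sums were higher with more *Pi16* UMIs in both libraries, from 16043 to 32286 CPM in Pi16/Dpp4 fibroblasts with IgG; interstitial sums were lower from class to class with IgG, from 20503 to 8631 CPM among Pi16/Dpp4 fibroblasts, but with SPP1-nAb they were 21092 CPM without a UMI, 24905 CPM with 1, 21937 CPM with 2 to 4 and 12300 CPM with at least 5.

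*Smoc2* and *Cxcl14* split the cells further. Of the Pi16/Dpp4 fibroblasts, 271 (38.2%, 34.6% to 41.9%) with IgG and 55 (16.7%, 12.8% to 21.2%) with SPP1-nAb had no UMI of these interstitial markers. Their adventitial sums were 34067 and 35129 CPM. Both genes are on the interstitial list, so the sum of the other 22 genes of that list was taken, which was 3079 and 2637 CPM in these cells and 14858 and 14689 CPM in cells with *Smoc2* or *Cxcl14*. Macrophage markers were at 685 CPM with IgG and 2833 CPM with SPP1-nAb in the cells without both, and the part of phagocytes or their RNA in these values was not tested. In the cells without either gene *Cd55* was at 638 and 606 CPM and *Sema3c* at 1170 and 1066 CPM, whereas *Pi16* was at 1801 and 1308 CPM, *Dpp4* at 386 and 285 CPM and *Krtdap* at 269 and 33.5 CPM. Cells with either gene had adventitial sums of 19420 and 16774 CPM. The absence of a UMI depends on depth, and in cells thinned to 2000 UMIs the share without both genes was 53.4% (49.7% to 57.2%) with IgG and 26.9% (22.2% to 32.1%) with SPP1-nAb. These 698 and 327 cells were chosen by the rule before thinning, so detection but not membership was set to equal depth.

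Pi16/Dpp4 fibroblasts were then compared with other fibroblasts across 8903 genes, within each library. Since the cells were chosen by *Pi16* and *Dpp4*, this is a description of what accompanies those genes and no test was made. Of the genes compared, 67 (0.753%) were at least 2-fold higher in Pi16/Dpp4 fibroblasts of both libraries and 37 (0.416%) at least 2-fold lower. Taken library by library, 1.95% were 2-fold higher and 2.2% lower with IgG, and 1.49% higher and 0.966% lower with SPP1-nAb. The median log2 ratio over all genes was −0.03 with IgG and −0.02 with SPP1-nAb. Of the 36 adventitial genes, 33 could be compared and 16 were at least 2-fold higher in both libraries, with none lower. The list was chosen with earlier results of these data known and holds genes that lead this comparison, such as *Cmah* and *Sema3c*. This count is therefore a description and no independent support. Their median log2 ratios were 1.61 and 1.06. Of the 24 interstitial genes none was 2-fold higher and 2, *Gdf10* and *Fmo2*, were 2-fold lower in both.

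The genes with the highest ratios outside the rule encode proteins of varied kinds. *Car8*, a carbonic anhydrase-related protein without enzyme activity, was at 94.9 against 5.13 CPM with IgG and at 49.5 against 0.619 CPM with SPP1-nAb, a log2 ratio of 4.21 and 6.32. *Cmah*, which makes the sialic acid N-glycolylneuraminic acid, was at 88.0 against 3.73 CPM and 43.0 against 2.79 CPM. *Pcsk6*, a proprotein convertase, was at 243 against 37.3 CPM and 116 against 17.6 CPM. *Sema3e*, a relative of *Sema3c*, had log2 ratios of 3.48 and 3.66. The nuclear receptor gene *Rorb* had ratios of 3.54 and 2.59, the potassium channel gene *Kcnk5* 3.46 and 2.63, and the synaptic vesicle protein gene *Sv2c* 4.39 and 3.38. *Efhd1*, which encodes a mitochondrial calcium-binding protein, had ratios of 2.19 and 3.45. The second rested on 14 UMIs in other fibroblasts and ranged from 1.84 to 4.79 over 17 settings. *Car8* and *Dmkn* (described next) had few UMIs in other fibroblasts, so the ratios of *Car8* with SPP1-nAb (4.44 to 9.38) and of *Dmkn* with IgG (5.27 to 10.20) have wide intervals. Over 17 settings the first ranged from 3.40 to 7.55 and the second from 5.63 to 10.2.

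A set of neighboring genes stood out. *Sbsn* (chr7:30450896-30455559), *Dmkn* (chr7:30463176-30480488) and *Krtdap* (chr7:30487321-30490522), all on the plus strand of GRCm39, span 39627 bases and encode secreted proteins known from the differentiating layers of the epidermis. *Sbsn* was at 177 CPM in Pi16/Dpp4 fibroblasts against 10.6 CPM in other fibroblasts with IgG and at 90.7 against 10.5 CPM with SPP1-nAb. *Dmkn* was at 44.0 against 0.311 CPM with IgG and at 23.9 against 1.86 CPM with SPP1-nAb. *Krtdap* had 507 UMIs in 110 Pi16/Dpp4 fibroblasts and no UMI in 1239 other fibroblasts of the IgG library. It was under the minimum of 50 UMIs with SPP1-nAb and so was not among the 8903 genes compared. With IgG the exact interval of its log2 ratio starts at 7.67. Against a floor of 3 counts over all other fibroblasts (0.466 CPM) its level was 252-fold higher. That value depends on the floor, lies above the start of the exact interval and is no lower bound. With SPP1-nAb it had 30 UMIs in 10 cells, or 10.2 CPM against 1.86 CPM. The 3 genes overlapped in part of the cells. At least 1 of them was found in 221 Pi16/Dpp4 fibroblasts with IgG and 76 with SPP1-nAb, at least 2 in 104 and 18, and all 3 in 45 and 7. With IgG, 89 of the 110 cells with a *Krtdap* UMI (80.9%) also had *Dmkn* or *Sbsn*, against 111 of the 599 without one (18.5%). With SPP1-nAb it was 10 of 10 against 66 of 319 (20.7%). The *Krtdap*-positive cells with IgG had 2623 CPM of *Pi16* and 36686 CPM of adventitial genes, and their interstitial sum was 3104 CPM.

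Single genes of contraction and matrix were among those lower in Pi16/Dpp4 fibroblasts, and no such group was tested. Summed pericyte and smooth muscle markers, a list that includes *Acta2*, were at 45.8 against 121 CPM with IgG and 54.6 against 107 CPM with SPP1-nAb. This sum is thus not separate from the *Acta2* values given next. Over the 4 genes of the list compared, the median log2 ratio was −1.44 with IgG and −0.25 with SPP1-nAb. The part of such cells in the values of the contractile genes was not tested. *Acta2*, smooth muscle actin, was at 9.03 against 29.8 CPM with IgG and at 8.53 against 54.2 CPM with SPP1-nAb. It had 39 and 25 UMIs in Pi16/Dpp4 fibroblasts, and 5 cells held 64.1% and 60% of them. *Tagln* and *Mylk*, also of the contractile apparatus, had log2 ratios of −1.70 and −2.43, and −1.91 and −1.44. *Tagln* had 29 UMIs in Pi16/Dpp4 fibroblasts of each library, 5 cells held 55.2% and 75.9% of them, and its ratio with IgG was −0.14 after thinning before the rule, −0.63 with the highest doublet scores removed and −0.67 with exclusion by 8 further marker genes. *Col11a1*, a fibrillar collagen of cartilage and tendon, was at 2.55 against 29.8 CPM and 3.41 against 12.7 CPM. It had 11 UMIs in 5 Pi16/Dpp4 fibroblasts with IgG and 10 UMIs in 6 with SPP1-nAb. Its log2 ratio with IgG, −3.55, ranged from −5.65 to −1.69 over 16 settings. *Dlk1*, a Notch-related regulator of adipogenesis, had ratios of −2.95 and −1.79. In Pi16/Dpp4 fibroblasts it had 44 UMIs in 15 cells with IgG and 11 UMIs in 6 with SPP1-nAb, and 5 cells held 63.6% and 90.9% of them. *Clu*, *Angptl7*, *Edil3*, *Lrrtm3*, *Astn2*, *Cyp2f2* and *Kif26b* completed the 12 lowest by the smaller ratio. With SPP1-nAb the ratio of *Angptl7*, −1.70, was −0.46 after thinning and −0.45 without the exclusion by *Csf1r*, *Pecam1* and *Tnmd*, and that of *Clu*, −1.67, was −0.94 with the 8 further marker genes. The hyaluronan and glycan list had a higher sum in Pi16/Dpp4 fibroblasts, 6114 against 3138 CPM with IgG and 5443 against 3500 CPM with SPP1-nAb. Within it, the synthase gene *Has1* was at 552 against 136 CPM with IgG and at 491 against 297 CPM with SPP1-nAb, and *Ugdh*, which supplies glucuronate for the polymer, at 991 against 324 CPM and 842 against 465 CPM. Of the list's 9 genes compared, 1, *Gfpt2* of the hexosamine pathway, was at least 2-fold higher in both libraries and none lower. Over all genes compared the share higher was 0.753%. *Has1*, *Ugdh* and *Gfpt2* are also on the adventitial list, so the 2 lists are not separate results. *Adamts5*, a protease that cleaves aggrecan and versican, was at 915 against 325 CPM and 645 against 333 CPM.

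**Figure D3:**
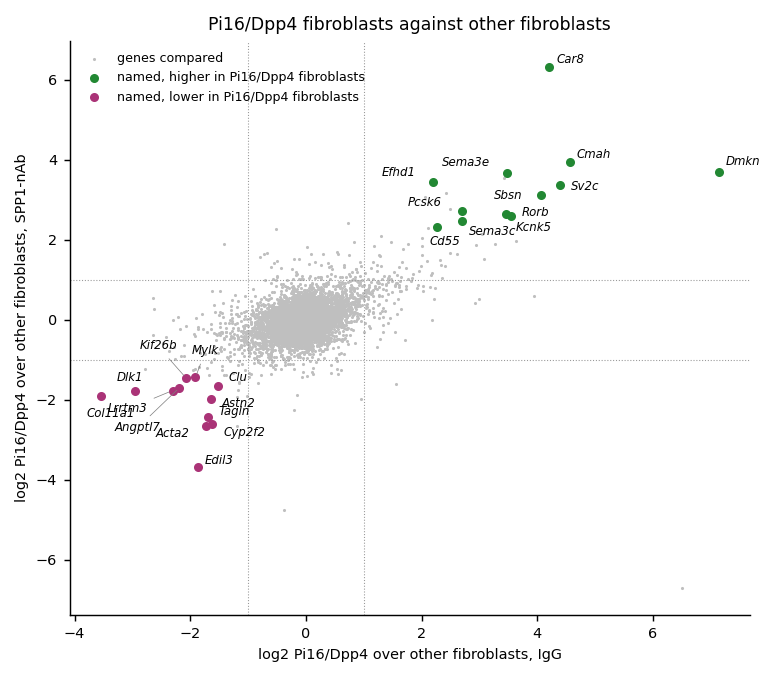
Log2 ratio of Pi16/Dpp4 fibroblasts over other fibroblasts for 8903 genes, with IgG on the x axis and SPP1-nAb on the y axis; dotted lines mark 2-fold, and the 12 named genes per direction are colored. The single point at the lower right is *Ccl17*, a chemokine gene with 61 UMIs in 3 Pi16/Dpp4 fibroblasts with IgG and 116 UMIs in other fibroblasts with SPP1-nAb.

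Clustering of the 1038 cells gave 8 clusters, described by leading genes and left without cell type names. The genes that define a cluster are no finding about it, and a cluster mostly of 1 library may be that library. Cluster 4, with 71 IgG and 48 SPP1-nAb cells, was led by *Sv2c*, *Cmah*, *Efna5* and *Cd55* and had the highest adventitial sum, 40364 CPM, with 2925 CPM of interstitial genes. Cluster 2, led by *Krtdap*, *Stmn4* and *Sbsn*, had a like profile, with 34941 CPM of adventitial genes and 2221 CPM of *Pi16*, but 220 of its 227 cells came from the IgG library. Cluster 1 was led by *Cxcl13*, *Prg4* and *Mmp3* and cluster 3 by *Gdf10*, *Inmt* and *Comp*. Cluster 6 (80 and 73 cells) was led by *Trf*, *Fetub* and *Cxcl14* and held 42523 CPM of interstitial against 11878 CPM of adventitial genes. Cluster 0 (54 and 89 cells) was led by *C1qtnf3*, *Mest*, *H19* and *Ptn*, with *Cthrc1* and *Postn* next, and had the highest activated sum, 13147 CPM. At the other end from cluster 4, the 18 cells of cluster 5, of which 12 were from IgG, had the lowest adventitial sum, 7610 CPM, and the highest interstitial sum, 67273 CPM. Its leading genes included *Tenm2*, *Cldn1* and *Foxd1*, which are on the list of nerve sheath fibroblast markers, and its *Pi16* level was 98.0 CPM. Cluster 7 (26 and 20 cells) was led by *Il1b*, *Ctss*, *H2-Aa* and *Cd52*, genes of phagocytes and antigen presentation, and had 13287 CPM of macrophage markers and a median of 10151 UMIs. Ratios between the conditions without cluster 7 are given below for chemokines, *Spp1*, the genes with the largest ratios and macrophage markers.

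**Figure D4:**
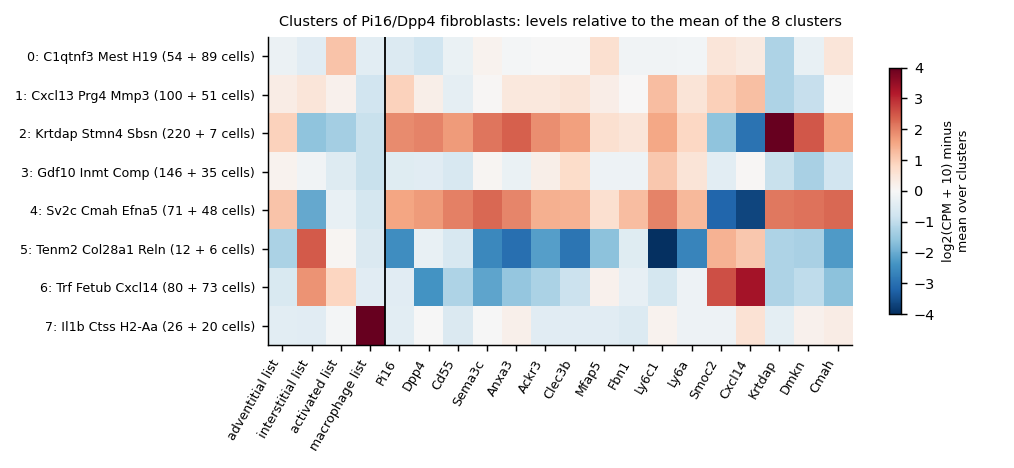
Levels of 4 gene lists and 16 genes in the 8 clusters of Pi16/Dpp4 fibroblasts, as log2(CPM + 10) minus the mean over clusters (color scale limited to −4 and 4), with the number of IgG and SPP1-nAb cells in brackets. Clusters 2 and 4 share high adventitial genes and low *Smoc2* and *Cxcl14*, cluster 6 shows the reverse, and the macrophage list is high in cluster 7 alone.

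The conditions were compared in the Pi16/Dpp4 fibroblasts over 7328 genes, those with at least 100 UMIs in at least 20 cells. Over all Pi16/Dpp4 fibroblasts together, activated fibroblast genes and collagens were higher and adventitial genes lower with SPP1-nAb than with IgG. Elastic fiber genes, small leucine-rich proteoglycans and proteases went both ways. At least 2-fold higher were 118 genes (1.61%) and at least 2-fold lower 132 (1.8%), around a median log2 ratio of −0.01. The interval of the ratio lay above 0 for 16.5% of the genes and below 0 for 16%, and it is narrower for abundant genes, so that small differences pass it there. In other fibroblasts 94 of 7239 genes (1.3%) were past 2-fold higher and 113 (1.56%) lower. The counts describe 2 libraries and hold no error between animals. The lists below are read against these shares but were chosen with earlier results of these data known. All log2 ratios from here on are SPP1-nAb over IgG.

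Of the 36 adventitial genes, 34 were compared and 8 were at least 2-fold lower, none higher, with a median of −0.57 against −0.27 in other fibroblasts. The intervals of 30 lay below 0 and those of 2 above. Their summed level was 24254 CPM with IgG and 19388 CPM with SPP1-nAb, a log2 ratio of −0.32 (−0.34 to −0.31). *Limch1*, which encodes an actin-associated protein, was at 105 and 32.1 CPM. *Pcolce2*, an enhancer of procollagen processing, was at 440 and 175 CPM. *Tek*, the angiopoietin receptor, was at 140 and 60.7 CPM, with a ratio of −1.20 (−1.45 to −0.96). *Cd55* and *Sema3c* had ratios of −0.77 (−0.91 to −0.64) and −0.96 (−1.06 to −0.85), and in other fibroblasts −0.82 and −0.72. *Mfap5*, at 1268 and 1233 CPM, and *Fn1*, which encodes fibronectin, at 2369 and 2326 CPM, were the genes whose intervals held 0. Other matrix genes of the list were lower, *Fbn1* at a ratio of −0.34 (−0.39 to −0.28) and *Emilin2*, at 142 and 80.8 CPM, at −0.82 (−1.04 to −0.60). *Prg4*, the lubricant proteoglycan of gliding surfaces, and *Col14a1* were the genes with intervals above 0, at ratios of 0.38 and 0.18. The size and direction of the list's difference depended on which cells were taken. In cells with both *Pi16* and *Dpp4* its sum was 32620 CPM with IgG and 33746 CPM with SPP1-nAb. In cells without *Smoc2* and *Cxcl14* it was 34067 and 35129 CPM. The sum was lower with SPP1-nAb in cells with *Pi16* alone (17631 and 14320 CPM), *Dpp4* alone (18820 and 17105 CPM) and *Smoc2* or *Cxcl14* (19420 and 16774 CPM). Over all fibroblasts the log2 ratio of the list was −0.11, and in other fibroblasts 0.03.

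The interstitial list went in opposite directions in the Pi16/Dpp4 fibroblasts and the rest. Its sum in Pi16/Dpp4 fibroblasts was 14404 CPM with IgG and 18428 CPM with SPP1-nAb, a log2 ratio of 0.36 (0.34 to 0.37), and in other fibroblasts 28605 and 21092 CPM, a ratio of −0.44 (−0.45 to −0.43). Of 24 genes, 12 had intervals above 0 and 8 below, and 1 was 2-fold lower, *Rspo3*, which encodes an enhancer of Wnt signaling. *Smoc2* had ratios of 0.65 in Pi16/Dpp4 fibroblasts and −0.60 in other fibroblasts. *Apod*, an apolipoprotein of the lipocalin family, was at 5806 and 7569 CPM in Pi16/Dpp4 fibroblasts and at 14160 and 9278 CPM in other fibroblasts. *Cxcl14* was higher with SPP1-nAb in both, at ratios of 0.68 and 0.16. Over all fibroblasts the ratio of the list was −0.21, so a shift of cells across the border of the rule and a change within cells cannot be told apart. With the rule applied after thinning to equal depth, the ratios were 0.60 in Pi16/Dpp4 fibroblasts and −0.29 in the others.

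Activated fibroblast genes, which mark fibroblasts laying down matrix after injury, were higher with SPP1-nAb in Pi16/Dpp4 fibroblasts and in other fibroblasts. Of 24 genes 21 were compared, 5 were at least 2-fold higher and none lower, and 18 intervals lay above 0. The median was 0.83, against 0.80 in other fibroblasts, and the sum was 5892 CPM with IgG and 9056 CPM with SPP1-nAb, a ratio of 0.62 (0.60 to 0.65). Over all fibroblasts it was 0.65. *Postn*, a matricellular protein of healing tissue, was at 1080 CPM (1049 to 1112) and 1846 CPM (1797 to 1896), and at equal depth in 34.0% and 63.0% of cells. *Col8a1*, a short-chain collagen, was at 185 and 436 CPM. *Tnc* had a ratio of 1.28 and *Ltbp2*, which encodes a protein of the latent TGF-β binding family, of 1.70. The crosslinking enzyme *Lox* was at 293 and 530 CPM. *Fap* was not part of this, at 289 and 252 CPM, and *Acta2*, with 39 and 25 UMIs, was at 9.03 and 8.53 CPM.

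*Spp1* itself, the target of the antibody, is on this list. It had 152 UMIs in 37 Pi16/Dpp4 fibroblasts with IgG and 252 UMIs in 52 with SPP1-nAb, or 35.2 CPM (29.8 to 41.2) and 85.9 CPM (75.7 to 97.2). At equal depth 3.01% and 7.95% of the cells had a UMI, against 7.08% and 7.64% of other fibroblasts and 18.0% and 28.4% of phagocytes. The log2 ratio was 1.29, with 1.34 without cluster 7 and 0.67 after the estimated free RNA was subtracted. This part (2.40% of the UMIs with IgG and 5.67% with SPP1-nAb) was estimated from the macrophage genes *C1qa*, *C1qb* and *C1qc*. Their counts from any source enter it, so the subtracted ratio does not separate sources. Of its receptor genes, *Cd44*, which also binds hyaluronan, was at 293 and 537 CPM, a ratio of 0.87 (0.77 to 0.98), with 0.90 in other fibroblasts. The integrin genes *Itgb1* and *Itgav* were at 440 and 470 CPM and at 176 and 220 CPM. *Itgb6*, a partner of the αv chain, had 34 and 75 UMIs and was the list's only gene past 2-fold. The list summed to 1168 and 1547 CPM, with intervals above 0 for 5 of 8 genes and below 0 for none.

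Collagens were higher with SPP1-nAb by less than 2-fold in most cases. Of 16 genes 15 were compared and 1, *Col8a1*, was past 2-fold, while 14 of these abundant genes had intervals above 0 and none below. *Col5a2*, *Col8a1* and *Col12a1* are also on the activated list, *Col4a1*, *Col4a2* and *Col15a1* on the interstitial list and *Col14a1* on the adventitial list. These lists are thus not separate results. *Col1a2* was at 5668 and 7989 CPM, and the list summed to 11108 and 14716 CPM, a ratio of 0.41 (0.39 to 0.42) against 0.18 in other fibroblasts. Among small leucine-rich proteoglycans, which bind collagen fibrils, *Bgn* was at 1375 and 2810 CPM, whereas *Ogn* was at 2360 and 1332 CPM and *Omd* at 59.7 and 23.2 CPM, so that the list as a whole differed little, at 0.13. Elastic fiber genes split likewise. *Fbn2*, *Ltbp2* and *Mfap4* were past 2-fold higher, *Fbn1* was at 1750 and 1387 CPM, and the sum was 6502 and 6594 CPM. *Ltbp2* and *Lox* are also on the activated list, and *Fbn1*, *Mfap5* and *Emilin2* on the adventitial list. Hyaluronan and glycan genes were slightly lower as a list, at −0.17 (−0.20 to −0.14), with 6 of 9 intervals below 0 and 2 above, and the hyaluronan-binding *Tnfaip6* was at 1872 and 1436 CPM. Of 28 proteases and inhibitors compared 2 were past 2-fold in each direction, among them *Mmp3* at 221 and 501 CPM and *Timp3*, an inhibitor of such proteases, at 502 and 238 CPM, and their sum differed by 0.02.

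Secreted signals formed a mixed group. Of 24 cytokine, chemokine and receptor genes compared, 6 were at least 2-fold higher with SPP1-nAb and 1 lower, *Ccl19*, whose count is uncertain because the mouse genome carries near-identical copies. *Cxcl2*, a neutrophil attractant, was at 205 and 662 CPM in Pi16/Dpp4 fibroblasts, a ratio of 1.69, with −0.28 in other fibroblasts. *Ccl7*, which attracts monocytes, was at 280 and 594 CPM and *Cxcl1* at 1085 and 1765 CPM. Without cluster 7 the ratio of *Cxcl2* was 1.01, that of *Ccl7* 1.28 (1.09 with it) and that of *Cxcl1* 0.66 (0.70 with it), and the list again had 6 genes past 2-fold higher, with *Ccl2* (1.06) in place of *Ccl8* (0.95), and 1 lower. With the estimated free RNA subtracted, under the limit given for *Spp1*, 5 were higher. *Il33*, an alarmin, was at 193 and 331 CPM, and its receptor gene *Il1rl1* at 6.71 and 45.7 CPM, a ratio of 2.77 (2.18 to 3.40), with UMIs in 7 and 17 cells. Of the *Il1rl1* UMIs, 5 cells held 93.1% with IgG and 85.8% with SPP1-nAb. Of 26 growth factor and antagonist genes compared, 2 were past 2-fold higher and 4 lower. *Fgf10*, a ligand for epithelial FGF receptors, had 200 UMIs in 117 cells with IgG and 15 UMIs in 11 cells with SPP1-nAb, which is 46.3 and 5.12 CPM and a ratio of −3.18 (−4.04 to −2.42). In other fibroblasts it was at 54.4 and 8.05 CPM. *Fst*, an antagonist of activins, was at 315 and 143 CPM, and *Inhba*, which encodes an activin subunit, at 35.9 and 82.5 CPM. *Bdnf*, a neurotrophin, had 42 and 83 UMIs, or 9.72 and 28.3 CPM. *Wnt5a* was at 84.7 and 31.4 CPM, and of 9 Wnt pathway genes compared 2 (*Wnt5a* and *Rspo3*) were past 2-fold lower and none higher.

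Each of the lists for other programs had at most 1 gene past 2-fold when all Pi16/Dpp4 fibroblasts were taken. Of 29 transcription factor genes 1 was past 2-fold, *Meox1*, at 16.9 and 38.2 CPM. Immediate early genes, which answer to tissue digestion, summed to 13576 and 12632 CPM, with 1 of 20 genes past 2-fold (*Nr4a2*). Interferon response genes had a ratio of 0.24 with 1 of 22 past 2-fold (*Rsad2*), complement genes 0.19 with 1 of 9 (*C2*), retinoid genes 0.40 with 0 of 9 and adipogenic genes 0.12 with 1 of 6 (*Fabp5*). Without cluster 7, *Rsad2* and *Fabp5* were no longer past 2-fold, at 0.76 and 0.92, the complement gene *Cfb* (1.03) and, on the lower side, the transcription factor gene *Osr1* (−1.17) came to lie past it, and the adipogenic list was at −0.075. Antioxidant and barrier genes were at −0.25. The actin-severing *Gsn* of this list was at 5760 and 2972 CPM and the metallothionein gene *Mt1* at 3095 and 3006 CPM, while *Hmox1*, heme oxygenase, was at 71.5 and 189 CPM, a ratio of 1.40 (1.33 without cluster 7). Cell cycle genes were sparse, with 2 of 22 compared, and their sums of 140 and 207 CPM gave a ratio of 0.57.

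**Figure D5:**
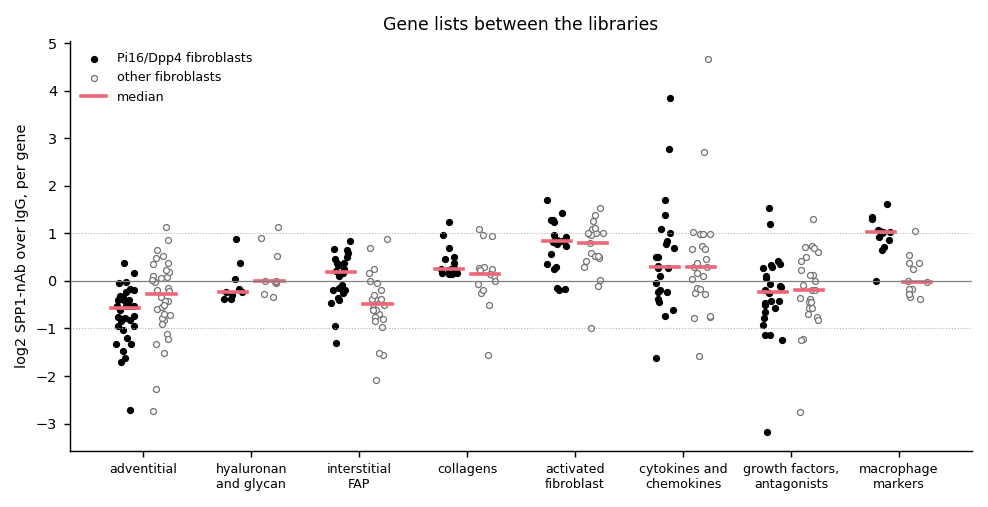
Log2 ratio of SPP1-nAb over IgG for the genes of 8 lists in Pi16/Dpp4 fibroblasts (filled) and other fibroblasts (open), each point 1 gene and each red line the median, with dotted lines at 2-fold. Activated genes lay mostly above 0 in both (medians 0.83 and 0.80), adventitial genes mostly below (−0.57 and −0.27), and macrophage markers other than *Ptprc* lay above 0 in Pi16/Dpp4 fibroblasts and around 0 in the others (medians 1.02, or 0.53 without cluster 7, and −0.03).

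The genes with the largest ratios were often carried by few cells. *Cxcl5*, a neutrophil-attracting chemokine, had 21 UMIs in 11 cells with IgG and 204 UMIs in 19 cells with SPP1-nAb, a ratio of 3.84 (3.19 to 4.56), and 5 cells held 71.4% and 84.8% of them. The ratio in other fibroblasts was 4.66. *S100a8*, a neutrophil gene, *Saa3*, an acute phase gene, *Ccl24*, *Ccrl2*, *Ccl9* and *Ms4a7*, which are known from macrophages, followed, with UMIs in 7 to 39 cells. *Chst11*, a chondroitin sulfotransferase, was more widely found, in 56 and 86 cells, at 15.7 and 66.5 CPM, a ratio of 2.08 (1.67 to 2.50) with 1.52 in other fibroblasts. *Hp*, haptoglobin, was at 28.2 and 96.2 CPM, and *Dio3*, which inactivates thyroid hormone, at 8.57 and 28.0 CPM in 18 and 43 cells. Without cluster 7 the ratios were 2.58 for *Cxcl5*, 0.76 for *S100a8* (2.89 with it), 0.15 for *Ms4a7* (1.74), 1.01 for *Ccrl2* (2.00) and 1.09 for *Ccl9*. They were 2.01 for *Chst11*, 2.59 for *Il1rl1*, 2.93 for *Saa3*, 2.12 for *Ccl24*, 1.91 for *Hp* and 1.73 for *Dio3*. The ratio of *S100a8* turned to −0.44 with at least 2 UMIs of *Pi16* and *Dpp4*, −0.26 with the highest doublet scores removed and −0.39 after thinning before the rule, and that of *Hp*, 1.77, was 0.89 after thinning. With the highest doublet scores removed, *Ccrl2* was at 0.88 and *Ccl9* at 1.00. Subtraction of the estimated free RNA left no *Ccl24* count with SPP1-nAb and no *Ms4a7* count with IgG, so neither had a ratio there.

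On the lower side *Krtdap* led, at 117 CPM (107 to 128) with IgG and 10.2 CPM (6.90 to 14.6) with SPP1-nAb, a ratio of −3.52 (−4.10 to −2.99). At equal depth it was found in 11.2% (8.93% to 13.7%) and 1.53% (0.498% to 3.53%) of cells. Its neighbors *Sbsn* and *Dmkn* had ratios of −0.96 and −0.88. *Rtl4*, a gene derived from a retrotransposon, had UMIs in 90 and 6 cells and a ratio of −3.21, with −2.99 in other fibroblasts. *Stmn4*, a microtubule regulator, was at 40.5 and 6.14 CPM. *Alkal2*, a ligand of the kinase ALK, was at 42.8 and 8.19 CPM, with like ratios of −2.39 in Pi16/Dpp4 fibroblasts and −2.40 in the others. *Eya4*, a transcriptional coactivator, and *Kcnc2*, a potassium channel gene, had ratios of −2.49 and −2.40 in Pi16/Dpp4 fibroblasts against −0.72 and −0.49 in the others. These differences between the cell sets were not tested. *Nr1h4*, the bile acid receptor, had ratios of −2.73 and 0.60, the second from few UMIs (3.89 and 5.88 CPM). *Sntg1*, *Grm7*, *Sult1e1* and *Phex* were also among the 12, and *Sult1e1* had UMIs in 37 and 2 cells, with a ratio of −2.60 that was −0.12 in cells with at least 5 *Pi16* UMIs. Over 18 settings the ratio of *Krtdap* ranged from −3.86 to −2.49, of *Rtl4* from −3.23 to −2.02 and of *Stmn4* from −2.80 to −1.88. That of *Kcnc2* ranged from −3.10 to −1.54, of *Grm7* from −3.42 to −1.96 and of *Phex* from −3.25 to −1.80.

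Among Pi16/Dpp4 fibroblasts with at least 5 *Pi16* UMIs, the same 118 and 132 genes were past 2-fold in the same direction in 92 and 90 cases, after thinning before the rule in 86 and 100, without cluster 7 in 95 and 123, with the 10% highest doublet scores removed in 94 and 121, and with exclusion by 8 further marker genes in 80 and 110. In the 18 settings run, the summed ratio of the adventitial list ranged from −0.35 to −0.21, of the interstitial list from 0.33 to 0.60, of the activated list from 0.51 to 0.79 and of the collagens from 0.34 to 0.58.

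Markers of other cells stood beside these values. The 15 macrophage markers, all detected, summed to 880 CPM with IgG and 1681 CPM with SPP1-nAb in Pi16/Dpp4 fibroblasts, to 797 and 894 CPM in other fibroblasts and to 23301 and 26598 CPM in the whole libraries. *Cd74*, of antigen presentation, was the most abundant at 265 and 437 CPM. The list's log2 ratio was 0.93 and it was 0.57 without cluster 7. It turned to −0.56 once a free-RNA part (2.40% and 5.67% of the UMIs) was subtracted, but this part was estimated from *C1qa*, *C1qb* and *C1qc*, which are on the list, so the subtraction takes out the list's own counts by construction and says nothing of their source. Of 13 compared 8 were past 2-fold higher, among them *C1qa* and *Lyz2*, and 1 without cluster 7, and 76.4% and 76.0% of the UMIs lay in the 5% of cells richest in them. The part of these cells or of their RNA in the chemokine values was not tested beyond the ratios without cluster 7. Neutrophil markers summed to 120 and 121 CPM, with *Retnlg* at 0 and *S100a8* at 5.79 and 43.0 CPM. Lymphocyte markers were at 3.47 and 3.07 CPM, with *Cd3e*, *Cd3d*, *Trbc2*, *Nkg7*, *Ncr1*, *Ms4a1* and *Cd79b* at 0 in both libraries. Endothelial markers were at 9.03 and 10.9 CPM and pericyte and smooth muscle markers at 45.8 and 54.6 CPM. Mesothelial markers were at 3.01 and 4.43 CPM and adipocyte markers at 2.08 and 6.14 CPM. *Cldn5* of the endothelial list, *Higd1b* and *Pln* of the pericyte list, *Msln* of the mesothelial list and *Lep* of the adipocyte list were at 0 in both libraries.

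Tenocyte markers summed to 349 and 675 CPM, mostly *Thbs4* at 254 and 454 CPM, which is also on the interstitial list, with a like ratio in other fibroblasts (0.95 and 0.86). Satellite cell markers were at 99.1 and 106 CPM, most of it *Vcam1*, a gene of the interstitial list as well. Myofiber markers were at 92.4 and 40.2 CPM. Schwann cell markers were at 597 and 719 CPM, of which the sodium channel gene *Scn7a* made up 486 and 587 CPM, whereas *Sox10* was at 0 with IgG. The reporter gene *Gfp* had 241 and 210 UMIs, and its share of cells at equal depth, 7.16% and 9.79%, was near that of other fibroblasts, 7.43% and 7.64%, and under that of phagocytes, 27.7% and 35.6%. Since the sample titles name GFP-positive cells, no set of cells here is known to lack the reporter, and the part of free RNA in this signal was not tested. Nerve sheath markers were at 479 and 409 CPM, led by *Ntn4*. The exclusion by *Csf1r*, *Pecam1* and *Tnmd* had removed 191 of 900 cells with IgG and 131 of 460 with SPP1-nAb.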

How the data were processed

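Cells of 2 droplet libraries were analyzed, 1 per condition. The authors deposited UMI counts per gene and barcode as whole numbers without normalization. The submitters' processing notes name Cell Ranger 8.0.0 and GRCm39, the file headers 9.0.1, and the study's methods also name GRCm38. Its removal of ambient RNA and doublets came after these counts. Of 32287 identifiers, 31674 were in GENCODE M39, the source of coordinates. Columns left unused numbered 0.

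Counts were summed over cells per library. Ratios of CPM have exact binomial intervals (Python 3.11.15, scipy 1.17.1). Genes needed 100 UMIs and 20 cells with a UMI between conditions, or 50 UMIs in each library between cell sets; past 2-fold was called. Cells were clustered with scanpy 1.11.5 (2000 genes, 20 components, 15 neighbors, resolution 0.5). No doublets were removed except in an alternative, where the 10% with the highest share of simulated doublets among 30 neighbors were. Named genes were those of the rule, of 32 lists, and the 12 largest ratios per direction, without mitochondrial, ribosomal, hemoglobin, immunoglobulin, sex and unnamed genes; some of them are not reported here. Cells and lists were chosen with earlier results of these data known. On simulated counts for 7328 genes, 95.9% of planted ratios lay inside their intervals. This checks counting error alone and says nothing of the intervals of genes whose UMIs lie in few cells. Alternatives covered the filters, the rule, depth, free RNA, minimum counts and scaling (edgeR 4.0.16 for TMM factors).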

Additional observations from a re-analysis of the deposited data

Results flagged for a closer look

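*Ms4a7*, a membrane protein gene known from macrophages, stood out because its difference between the libraries had opposite signs in the 2 sets of fibroblasts. Its log2 ratio of SPP1-nAb over IgG was 1.74 (1.26 to 2.24) in Pi16/Dpp4 fibroblasts, with UMIs in 30 and 24 cells, and −1.05 (−1.71 to −0.43) in other fibroblasts. The difference was not tested. In Pi16/Dpp4 fibroblasts 5 cells held 51.9% of its UMIs with IgG and 80.5% with SPP1-nAb, and without the cluster led by phagocyte genes the ratio was 0.15.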

How the results depend on the processing

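No paired analysis was possible because each condition had 1 library, which also left no replicate to leave out. The difference in the share of the library (SPP1-nAb minus IgG, −1.70 percentage points) was −1.99 without the exclusion by *Csf1r*, *Pecam1* and *Tnmd* and −0.869 with at least 5 *Pi16* UMIs. The difference in the share among fibroblasts (6.67 points) was 1.45 with at least 2 UMIs of *Pi16* and *Dpp4* together, and it reversed to −1.04 with at least 5 *Pi16* UMIs and to −0.631 with thinning before the rule. Of genes at least 2-fold higher with SPP1-nAb there were 65 with exclusion by 8 further markers, 78 with at least 5 *Pi16* UMIs, 43 after thinning, 192 at 0.5 times and 49 at 3 times the minimum UMIs, in place of 118. Of those lower there were 81, 51, 226 and 53 under the last 4 of these settings, in place of 132. Genes higher in Pi16/Dpp4 than in other fibroblasts numbered 101 with at least 2 UMIs, 145 with at least 5 *Pi16* UMIs, 31 after thinning and 39 at 3 times the minimum, in place of 67. Those lower numbered 66 with at least 2 UMIs, 83 without the cluster led by phagocyte genes, 196 with at least 5 *Pi16* UMIs, 68 at 0.5 times and 19 at 3 times the minimum, in place of 37. Thinning and stricter minimums leave fewer UMIs and genes by construction, and the other causes were not tested.

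The log2 ratio of *S100a8* reversed to −0.44 with at least 2 UMIs, −0.26 with the highest doublet scores removed and −0.39 after thinning. Small leucine-rich proteoglycans reversed to −0.075 with at least 5 *Pi16* UMIs and −0.021 after thinning, and macrophage markers to −0.56 with an estimated free-RNA part subtracted (2.40% with IgG and 5.67% with SPP1-nAb). Adipogenic genes reversed to −0.00078 with 8 further markers, −0.084 with doublet scores, −0.075 without the phagocyte-led cluster and −0.12 with free RNA subtracted. Adipocyte markers reversed to −1.42 with 8 further markers and −1.47 with at least 5 *Pi16* UMIs, and myofiber markers to 0.030 after thinning. Of the other values of single genes and lists, 1387 moved by less than their counting interval and 302 by more. Sums of elastic fiber genes, of proteases and inhibitors and of neutrophil, lymphocyte, endothelial, mesothelial and satellite cell markers, each near 0 or of few UMIs, also changed sign in some settings. Depth limits genes with under 100 UMIs, which were not compared.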
